A study of Mus musculus with 3 samples.

Results

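The 33 genes described here are the enzymes, loaders and regulators of DNA replication that are transcribed around the G1/S boundary and in S phase. They are a listed set, matched by Ensembl identifier in the feature tables of all 3 libraries of the series, which share 27040 genes, and all 33 were found. The libraries are single-cell 3′ mRNA libraries of the cortical hem region, dissected along the dorsal midline of the pallium in embryonic C57BL/6J mice. The wild-type libraries 1 and 2 were both made from 1 suspension, in which 4 PGKCre;Rosa26YFP embryos at E11.5 were pooled with 4 Wnt3aCre;Rosa26tdTomato embryos at E12.5. They therefore repeat the capture, not the animals, and were averaged and counted as 1 sample. The knockout library, labelled Gmnc-/-, came from 4 embryos at E12.5 and carries neither reporter by its label. Gmnc encodes a geminin-related coactivator needed for the multiciliated cell programme, and the embryos of each suspension cannot be separated. With 1 sample per genotype there is no replicate check and no test: differences are given as sizes, with 95% Poisson intervals of the summed counts that cover counting error only.

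A cell about to replicate its DNA loads the Mcm2-7 helicase onto origins with Cdc6 and Cdt1 and fires it with Cdc45 and the GINS complex. Polymerases then copy the strands on the Pcna clamp, which the Rfc proteins load, while ribonucleotide reductase and thymidylate enzymes supply nucleotides and chaperones rebuild chromatin. Many of these genes are targets of E2F factors, so their transcripts rise together before and during S phase and are low in postmitotic neurons. Multiciliated cells are also postmitotic, and are known to reuse parts of the cell cycle machinery while they build centrioles.

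After quality filters and doublet removal 8527, 7479 and 12884 cells were used, and the 3 libraries held 148073906, 139978761 and 259403297 UMIs. Barcodes were shared by 1914 cell calls of the wild-type libraries, 52 of them among cells that passed the filters; with the knockout library 78 and 42 barcodes were shared. Cells were clustered without these 33 genes and without the comparison lists of other replication genes, G2 and M genes and cell cycle exit genes, so that the classes do not rest on them. Hem progenitor-like cells (clusters 1 and 4) had a summed level of the 8 hem markers (Wnt3a, Lmx1a, Rspo1 and others) of 5441, 5402 and 6144 CPM in the 2 wild-type captures and the knockout, against 526, 533 and 572 CPM in the pallial-marker progenitors. The pallial-marker class was grouped after the data were seen, from 6 unnamed clusters whose highest marker score was the pallial list (Emx1, Lhx2 and others). Within it, cluster 3 held 1121 and 933 wild-type and 238 knockout cells, whereas cluster 6 held 36 and 25 against 1703 and was led by histone genes. Although left out of the clustering, Ung and Cdc6 were among the 10 leading genes of cluster 0. Of the 2 neuron clusters, cluster 11 (627, 564 and 7 cells) was led by Cdkn1a, Lhx1, Trp73, Ccno and Mcidas. Of its own scores that for Cajal-Retzius markers was highest (3.12), but none of the 6 was among its 10 leading genes and 1, Barhl2, belonged to the diencephalic list. Cluster 9 (255, 232 and 863 cells) was led by Calb2, a Cajal-Retzius marker, Cnr1 and Neurod6. Its highest score was for neurons (3.77), and its Cajal-Retzius score of 3.60 was above that of cluster 11. Values are therefore given by cluster number. Cluster 16, multiciliated-like by Meig1, Dynlrb2 and Rsph1, held 302 and 286 wild-type cells and 0 knockout cells, which allows a share of up to 0.0233% of that library's cells. Gmnc itself was counted at 29.7, 30.5 and 45 CPM over all cells. Its 3′ tags were thus not lower in the library labelled Gmnc-/-, and where the deletion lies was not stated in the labels used. A tag outside the deletion checks nothing.

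In the wild type the replication genes were highest in the progenitors and fell in every neuronal class, but by very different amounts. The level of a gene is given as CPM, its UMIs divided by all UMIs of the class, on the usual counts-per-1000000 scale. The 33 genes together reached 4258 and 4220 CPM in pallial-marker progenitors of libraries 1 and 2, 3605 and 3712 in hem progenitor-like cells and 2891 and 2713 in choroid plexus-like cells without cluster 16. They reached 1884 and 1957 CPM in intermediate progenitor-like cells, 1164 and 1317 in the multiciliated-like cluster, 969 and 957 in neuron cluster 11 and 573 and 581 in neuron cluster 9. Both wild-type libraries, which are captures of 1 suspension, gave the classes this order, although the gap between cluster 16 and cluster 11 in library 1 was not much larger than the gap between the libraries in cluster 16.

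**Figure D1:**
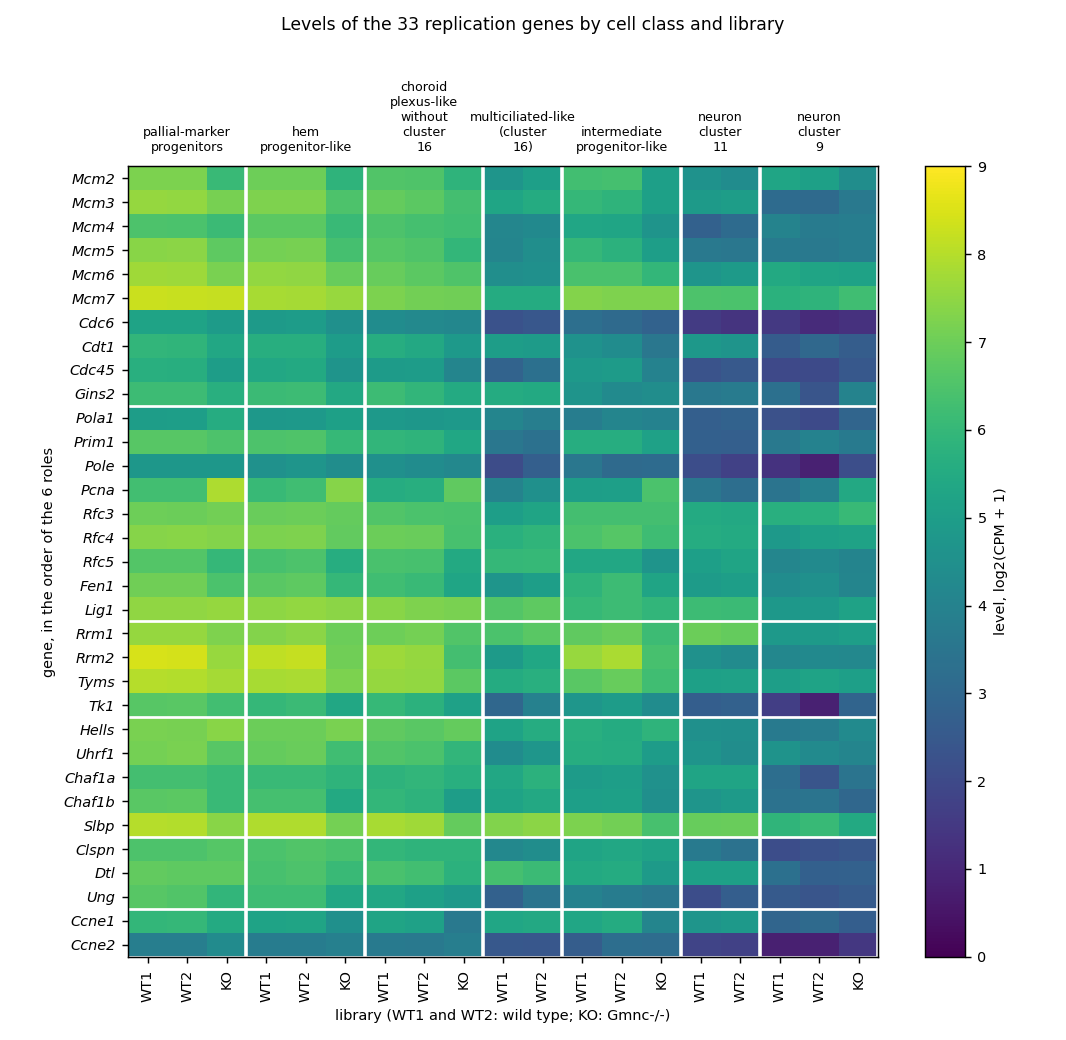
Heat map of log2(CPM + 1) for the 33 genes (rows, in the order of 6 roles) in 7 classes, 1 column per library; the knockout is left out where it held fewer than 10 cells. The columns darken from progenitors to neuron cluster 9, and Pcna is brighter in each knockout column.

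A gene counted as measured where the higher side had at least 50 UMIs and 20 CPM, and as called where the ratio of CPM was at least 2-fold; log2 values add a pseudocount of 1 CPM. Between the pallial-marker and hem progenitors none of 32 measured genes was called in either direction (5.03% of all genes were lower and 1.9% higher), and the median log2 ratio was 0.21. Choroid plexus-like cells without cluster 16 were also close to the hem, with a median of -0.36 and 0 of 32 called (2.99% lower, 4.03% higher of all genes). In intermediate progenitor-like cells 19 of 32 genes were at least 2-fold below the hem level and 0 above it, against 8.37% and 5.54% of all genes, and the median was -1.09. The uracil glycosylase gene Ung was lowest there, at 14.9 and 12.6 CPM against 72.2 and 72.0 in the hem. Cyclin E1 (Ccne1) and the reductase subunit Rrm2 had the highest log2 ratios, 0.20 and -0.44. Ccne1 was the only member above 0, whereas Rrm2 lay close to the next gene, at -0.50. Ccne1 had 38.9 and 45.9 CPM in intermediate progenitors against 36.2 and 37.2 in the hem, and Rrm2 193 and 233 against 282 and 297. With doublets kept, 12 genes were called.

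Neuron cluster 9 held the low state of the whole set. All 32 measured genes were at least 2-fold below the hem and 0 above it (16.3% and 13.2% of all genes), with a median log2 ratio of -2.74. In neuron cluster 11 28 of 32 were lower and 0 higher, against 12.4% and 12.8% of all genes, with a median of -2.42, and 4 genes stayed at 0.5 or more of the hem level. These were Rrm1, the large subunit of ribonucleotide reductase, Ccne1, the chromatin assembly subunit Chaf1a and the licensing factor Cdt1. Slbp lay just below that level, at 0.497.

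Rrm1 had 160 and 173 CPM in the hem, 126 and 115 in neuron cluster 11 and 27.4 and 28.9 in neuron cluster 9, so cluster 11 lay near the progenitors and did not overlap cluster 9. The ratio to the hem was 0.726 (95% counting interval 0.682 to 0.771). Its partner subunit Rrm2 went the other way, from 282 and 297 CPM in the hem to 22.5 and 19.2 in cluster 11, close to the 17.0 and 18.1 of cluster 9. Ccne1 had 36.2 and 37.2 CPM in the hem, 25.1 and 28.1 in cluster 11 and 6.66 and 7.70 in cluster 9. Chaf1a had 67.1 and 67.8, 37.0 and 37.3, and 8.51 and 4.23 CPM in the same order. For Cdt1 these were 48.6 and 49.1, 26.9 and 24.3, and 5.18 and 7.31 CPM. For all 4 genes both libraries put cluster 11 between the hem and cluster 9, and its counting intervals did not reach those of cluster 9. Clustering at the finer resolution left 2 genes at 0.5 or more, with log2 ratios of -1.0 for Rrm1, -2.06 for Ccne1, -1.55 for Chaf1a and -0.75 for Cdt1. With wild-type library 2 alone, Cdt1 was below 0.5 at 0.496.

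At the other end 19 of the 32 genes had at most 0.25 of the hem level in cluster 11, against 5.02% of all genes. The primase subunit Prim1 had 88.7 and 91.0 CPM in the hem and 5.77 and 5.69 in cluster 11, a ratio of 0.0638 (0.0483 to 0.0826). Ung had a ratio of 0.0616 (0.0449 to 0.0828). Of the helicase genes Mcm4 fell from 105 and 104 CPM to 5.97 and 7.85, whereas Mcm7 stayed at 87.6 and 85.9 CPM from 223 and 221. By role, the measured members at least 2-fold below the hem in cluster 11 were 9 of 10 licensing and helicase genes, 9 of 9 polymerase, clamp and ligation genes and 3 of 4 nucleotide genes. They were 4 of 5 chromatin and histone genes, 3 of 3 checkpoint and repair genes and 0 of 1 cyclins.

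Set directly against cluster 9, neuron cluster 11 was at least 2-fold higher for 8 of 20 measured genes and lower for 0, against 8.9% higher and 4.67% lower among all genes, and the median was 0.83. The 8 were Chaf1a, Rrm1, Dtl, Cdt1, Mcm3, Ccne1, Chaf1b and Lig1. The ratio of Chaf1a was 5.83 (4.07 to 8.49), but 4.35 in library 1 and 8.80 in library 2; that of Cdt1 was 5.19 and 3.33 and that of Rrm1 4.62 and 4.0, so the order of these genes differed between the libraries. Dtl, the adaptor of the ubiquitin ligase that degrades Cdt1 in S phase, had 34.0 and 33.4 CPM against 8.88 and 5.77. Mcm2 and Mcm6 leaned the other way, with log2 ratios of -0.70 and -0.55 that were not called.

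The multiciliated-like cluster 16 showed a similar split when set against the other choroid plexus-like cells. There 20 of 31 measured genes were at least 2-fold lower and 0 higher, against 5.61% and 8.48% of all genes, the median was -1.36, and 11 genes stayed at 0.5 or more: Cdt1, Gins2, Pola1, Rfc5, Lig1, Rrm1, Chaf1a, Chaf1b, Slbp, Dtl and Ccne1. In the other choroid plexus-like cells Ccne1 had 37.5 and 34.3 CPM, in cluster 16 38.8 and 41.7, and its ratio of 1.12 had an interval of 0.985 to 1.27. Dtl had 83.7 and 75.9 CPM against 79.8 and 69.0. Rrm1 had 128 and 139 CPM against 86.8 and 102. Ccne1 and Dtl thus lay near the level of the other choroid plexus-like cells, and Rrm1 below it in both libraries. That class was not selected for cycling cells.

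Rrm2 fell from 205 and 188 CPM to 28.6 and 40.5 in cluster 16, a ratio of 0.176 (0.156 to 0.200). Prim1 fell from 59.7 and 57.1 to 10.8 and 9.26 CPM. At most 0.25 was kept by 8 of 31 genes (0.848% of all genes), Mcm4, Mcm5, Mcm6, Prim1, Pole, Rrm2, Tk1 and Ung, which code for helicase subunits, primase, the leading-strand polymerase and nucleotide enzymes, with Ung in uracil repair. All 4 genes kept in neuron cluster 11 were among the 11 kept in cluster 16, which is all of the first set and 36.4% of the second, and all 8 lost in cluster 16 were among the 19 lost in cluster 11. The 2 comparisons use different cells and different reference classes of the same wild-type libraries. The same overlap over all genes was not counted, so whether it is particular to the members is not known.

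**Figure D2:**
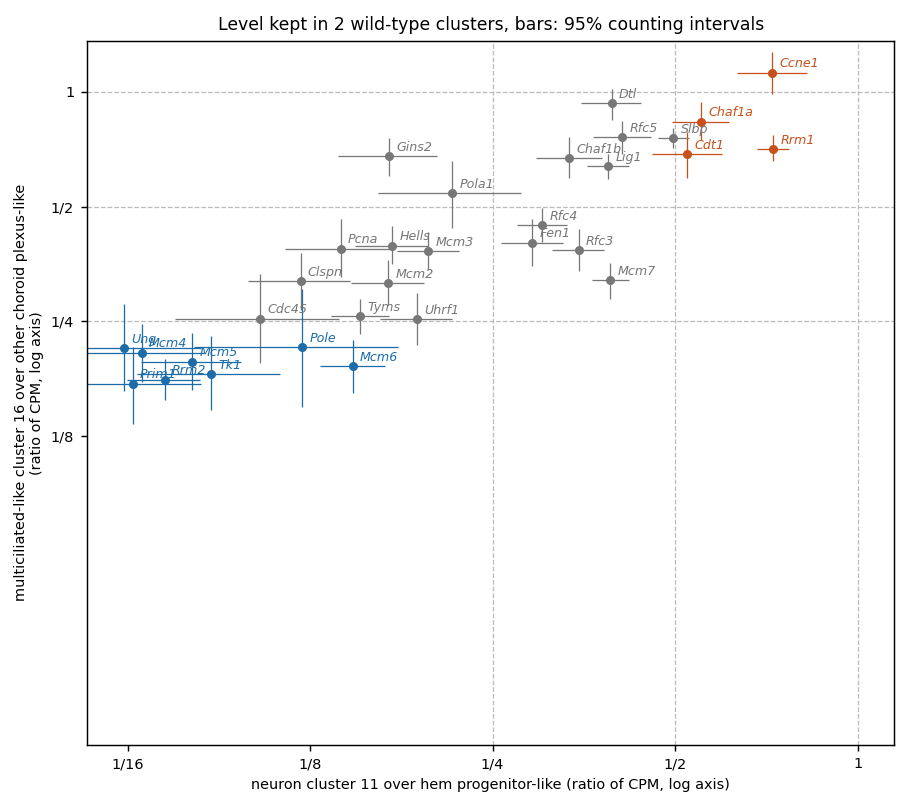
Ratio of CPM in neuron cluster 11 over hem progenitor-like cells (x, log axis) and in multiciliated-like cluster 16 over other choroid plexus-like cells (y, log axis) for the 31 genes measured in both; points are wild-type means, bars 95% counting intervals. Orange marks the 4 genes at 0.5 or more on both axes, blue the 8 genes at 0.25 or less on both.

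Genes of the comparison lists were mixed in the same clusters. Of 43 measured genes of the other replication list, 35 were at least 2-fold below the hem in cluster 11 and 1 above it, the repressor gene E2f7, at 188 and 187 CPM against 22.7 and 23.0. Mcm10 was lowest, with a log2 ratio of -3.64, then Rpa2 at -3.34, and Orc4 was at 0.44. In the G2 and M list 23 of 24 were lower. The exception was Cdk1, at 205 and 190 CPM in cluster 11 against 214 and 212 in the hem and 18.5 and 17.3 in cluster 9; Aurka stood at -1.22, Ccnb2 at -3.71 and Nusap1 at -3.70. In cluster 16 Cdk1 reached 629 and 669 CPM. Markers of other cell types moved too: intermediate progenitor markers summed to 2711 and 2716 CPM in cluster 11 and 1911 and 1842 in cluster 9, the 8 hem progenitor markers to 3013 and 3107 against 424 and 447, neural progenitor markers to 281 and 266 against 181 and 180, and the 8 multiciliated markers to 459 and 456 against 15.6 and 14.2. Their part in the difference between the clusters was not tested. Of the exit list, 6 of 10 genes were at least 2-fold higher in cluster 11 than in the hem and 2 lower; the inhibitor gene Cdkn1a rose from 13.2 and 15.9 to 2064 and 2016 CPM and Gadd45g by 3.29 on the log2 scale, while Ccnd2 stood at -2.21 and Ccnd1 at -1.68.

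**Figure D3:**
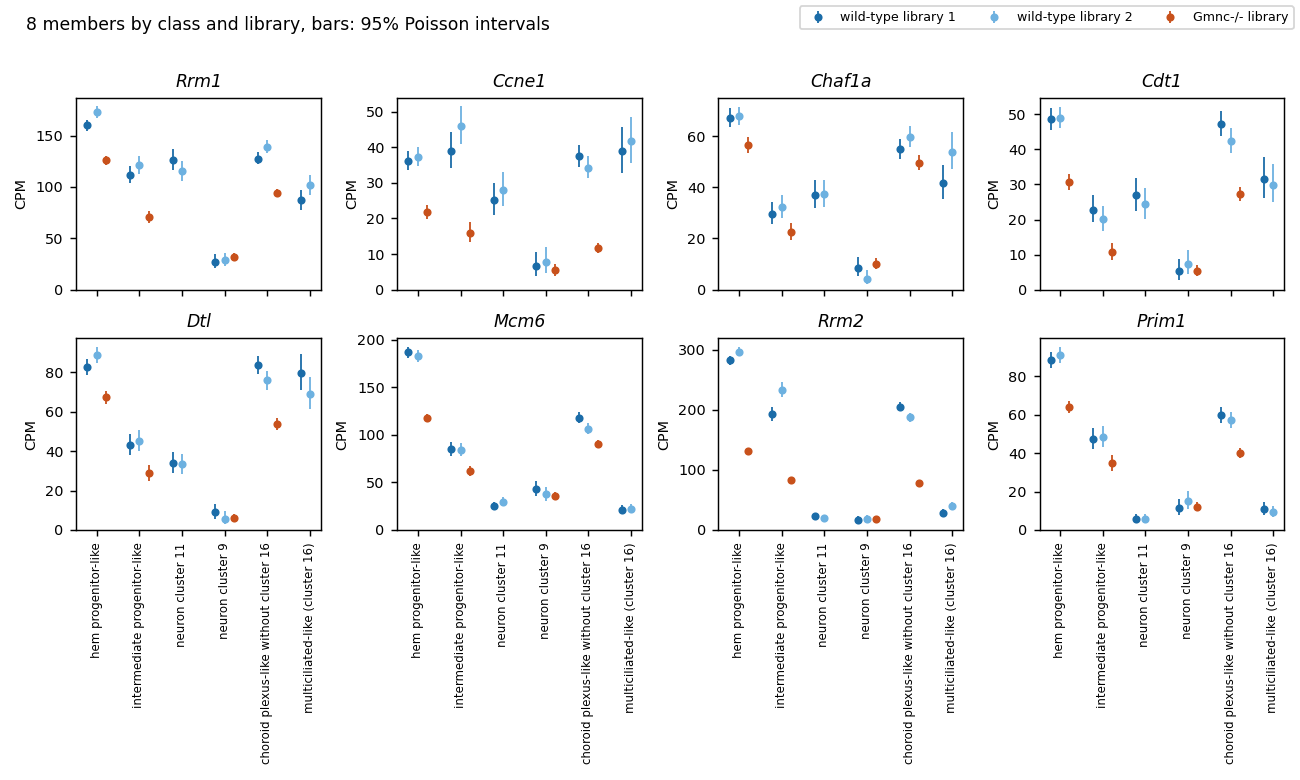
CPM (y, from 0) of 8 genes in 6 classes by library (2 wild type, 1 knockout); bars are 95% Poisson intervals. Rrm1, Ccne1, Chaf1a, Cdt1 and Dtl are higher in neuron cluster 11 than in cluster 9, whereas Mcm6, Rrm2 and Prim1 are low in both.

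At the level of single cells, thinned to 4000 UMIs each, Rrm1 was seen in 36.9% (95% exact binomial interval 33 to 40.8) and 35.4% (31.4 to 39.5) of cells of cluster 11, 56.1% and 58.2% without thinning. In hem progenitor-like cells the shares were 41.1% and 42.7%. In cluster 9, the class with the lowest level and the nearest to a background, they were 9.49% and 11.2%, and 10.3% in the knockout. Median depths before thinning were 7686 and 8886 UMIs in cluster 11 and 10146 and 11120 in cluster 9. The Prim1 shares in cluster 11 were 2.60% and 1.81%, at or below the 4.35% and 7.59% of cluster 9.

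The kept genes were not spread evenly inside the wild-type neuron clusters. When the 2 neuron clusters were divided again, also without the 33 genes, Rrm1 had 155 and 146 CPM in sub-cluster 1, led by Dkk1, Ccno and Mcidas, and 147 and 136 in sub-cluster 4, led by Irx3 and Neurog1. It had 123 and 107 in sub-cluster 5, led by Sncg and Foxo1, 66.4 and 57.4 in sub-cluster 6, led by Grm2 and Barhl2, and 22.5 and 26.1 in sub-cluster 3, led by Fmnl1 and E2f1. Ccne1 was limited further, with 39.2 and 43.8 CPM in sub-cluster 1, 36.0 and 41.3 in sub-cluster 4 and 11.9 and 9.84 in sub-cluster 5. Cdt1 had another order: 40.6 and 32.2 CPM in sub-cluster 5, 25.9 and 29.2 in sub-cluster 1, 27.3 and 18.0 in sub-cluster 6 and 16.7 and 17.5 in sub-cluster 4. The histone mRNA-binding protein gene Slbp was also highest in sub-cluster 5, at 178 and 169 CPM. So the kept genes did not share 1 pattern across the sub-clusters. Markers of less mature cells differed across them too. The marker score of sub-cluster 4 was higher for intermediate progenitors (3.14) than for Cajal-Retzius cells (2.83) or neurons (1.57), and the intermediate progenitor score was 2.65 in sub-cluster 1, 2.05 in sub-cluster 5 and 1.18 in sub-cluster 6. The mitotic topoisomerase gene Top2a had 79.6 and 64.1 CPM in sub-cluster 1, 116 and 98.5 in sub-cluster 4, 29.7 and 25 in sub-cluster 5 and 28.5 and 16.9 in sub-cluster 6. Rrm1 and Ccne1 thus had their highest levels in sub-clusters 1 and 4, as Top2a and this score did. For both genes the counting intervals of sub-clusters 1 and 4 overlapped in each library, so neither sub-cluster led. Elsewhere the order differed: sub-cluster 3 had a score of 1.84, above sub-cluster 6, but less Rrm1. Top2a had 13.3 and 19.6 CPM there. The part of less mature cells in the level of Rrm1 and Ccne1 was not tested.

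The upstream sequences of kept and lost genes are shown because the members share a known class of regulators. RefSeq promoter windows (GRCm38.p6, 250 bases before to 50 after the start) matched 29 of the 33 genes by symbol. The E2F core was searched on both strands as the letters TTCCCGC, the variant TTCGCGC, the variant TTGCCGC and the variant TTGGCGC. At least 1 stood in the windows of 20 of 29 members (69.0%), against 2936 of 27025 genes in the table (10.9%). Among members kept in cluster 16 they stood in 7 of 10, and among those at 0.25 or less in 4 of 6. The letters CCAAT, also on both strands, were in 17 of 29 member windows (58.6%) and 41.1% of all; TTTGAA, the core of the cell cycle homology region, was in 3 of 29 (10.3%) and 20.2% of all. Read on the other strand, CCAAT can share letters with the variant TTGGCGC, and a match is a description of sequence only. The 150 bases before the start of 3 kept genes (Rrm1, Chaf1a, Dtl) and 3 lost genes (Mcm5, Mcm6, Prim1) follow, 5′ to 3′ on the gene's strand, with the E2F core letters in capitals on whichever strand they were read; overlapping matches appear as 1 run.
Rrm1, chr7:102441545-102441694, plus strand: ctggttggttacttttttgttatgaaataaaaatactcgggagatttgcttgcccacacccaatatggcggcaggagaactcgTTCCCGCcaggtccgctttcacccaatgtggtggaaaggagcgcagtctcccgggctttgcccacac
Chaf1a, chr17:56040266-56040415, plus strand: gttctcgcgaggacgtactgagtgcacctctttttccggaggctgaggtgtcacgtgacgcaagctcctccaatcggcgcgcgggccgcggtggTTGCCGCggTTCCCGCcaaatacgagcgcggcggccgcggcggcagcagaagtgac
Dtl, chr1:191575545-191575694, minus strand: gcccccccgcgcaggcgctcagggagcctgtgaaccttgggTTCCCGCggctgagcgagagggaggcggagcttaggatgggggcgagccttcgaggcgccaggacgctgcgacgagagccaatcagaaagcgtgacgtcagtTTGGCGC
Mcm5, chr8:75109359-75109508, plus strand: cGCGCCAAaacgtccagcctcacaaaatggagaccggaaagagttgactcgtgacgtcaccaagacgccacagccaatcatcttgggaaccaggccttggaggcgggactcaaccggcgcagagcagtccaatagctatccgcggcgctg
Mcm6, chr1:128359706-128359855, minus strand: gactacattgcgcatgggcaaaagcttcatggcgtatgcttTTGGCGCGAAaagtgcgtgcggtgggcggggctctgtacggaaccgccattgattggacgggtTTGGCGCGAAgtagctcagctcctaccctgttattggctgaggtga
Prim1, chr10:128015065-128015214, plus strand: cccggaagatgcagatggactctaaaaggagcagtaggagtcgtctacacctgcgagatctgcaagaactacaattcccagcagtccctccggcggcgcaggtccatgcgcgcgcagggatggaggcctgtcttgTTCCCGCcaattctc
The genes shown all hold the letters in these bases. The kept genes Cdt1, Rfc5, Lig1, Chaf1b, Slbp and Ccne1 and the lost genes Rrm2, Tk1 and Ung did not. The sequences shown therefore cannot compare the kept with the lost genes.

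In the knockout library the replication genes were lower than in the wild type in the progenitor classes, mostly by less than 2-fold. The median log2 fold of the members, knockout over wild type, was -0.63 in hem progenitor-like cells (-0.03 for all genes), -0.36 in pallial-marker progenitors (-0.08), -0.55 in choroid plexus-like cells without cluster 16 (-0.06) and -0.61 in intermediate progenitor-like cells (-0.07). The choroid plexus-like class differed in make-up: its 10 choroid markers summed to 12914, 14256 and 38787 CPM, cluster 2 held 606, 488 and 1218 of its cells and cluster 10 held 440, 383 and 480. Cells with 10 or more G2 and M UMIs at a depth of 4000 were 46.2%, 48.2% and 32.7% of it. The intermediate progenitor-like class differed too: cluster 14 held 186, 161 and 454 of its cells and cluster 24 held 43, 44 and 6. Cells with 10 or more G2 and M UMIs were 26.0%, 29.6% and 13.3% of that class. The part of these differences in the lower member levels was not tested. Members below 0 numbered 29 of 32, 26 of 32, 28 of 31 and 25 of 28 in the same order. Few were called: 2 of 32 lower in the hem class (1.19% of all genes), 1 of 32 in pallial-marker progenitors (1.24%), 2 of 31 in choroid plexus-like cells (2.13%) and 3 of 28 in intermediate progenitors (2.94%). In each of the 4 classes 1 member was called higher, Pcna, against 4.44%, 3.71%, 4.84% and 4.27% of all genes. Over all choroid plexus-like cells, cluster 16 included, 2 of 30 were lower and 1 higher (3.06% and 4.76% of all genes) and the median was -0.37.

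Mcm2, a helicase subunit, had 129, 129 and 57.3 CPM in the hem class of wild-type libraries 1 and 2 and the knockout, 150, 147 and 67.5 in pallial-marker progenitors and 77.2, 79.6 and 33 in intermediate progenitors. The knockout lay below both wild-type libraries in each, with a ratio of 0.445 (0.419 to 0.472) in the hem class. Rrm2 had 282, 297 and 132 CPM in the hem class, 205, 188 and 78.6 in choroid plexus-like cells and 193, 233 and 82.3 in intermediate progenitors. In pallial-marker progenitors it had 349, 341 and 194 CPM and was not called. In choroid plexus-like cells Ccne1 had 37.5, 34.3 and 11.6 CPM, a ratio of 0.323 (0.281 to 0.368), and 38.9, 45.9 and 16 in intermediate progenitors. In the hem class it had 36.2, 37.2 and 21.8 CPM and was not called.

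Within the roles the members did not move as 1. In the hem class the licensing and helicase genes had a median of -0.68, from Mcm2 at -1.16 to Mcm7 at -0.19, and the 4 nucleotide genes -0.63, from Rrm2 at -1.13 to Rrm1 at -0.40. Polymerase, clamp and ligation genes had a median of -0.20, from the clamp loader subunit Rfc5 at -0.85 to Pcna at 1.22, and included the polymerase alpha catalytic subunit Pola1 at 0.31. Chromatin genes had a median of -0.65, from Chaf1b at -0.88 to the remodeller Hells at 0.20. The checkpoint and repair genes ran from Ung at -0.79 through Dtl at -0.35 to the checkpoint mediator Clspn at -0.11. Hells and Pola1 were above 0 in pallial-marker progenitors too, at 0.25 and 0.55. The helicase subunits Mcm3, Mcm4, Mcm5 and Mcm6, the loader Cdc6, its partner Cdt1, the firing factors Cdc45 and Gins2, primase Prim1, polymerase Pole, the clamp loaders Rfc3 and Rfc4, the flap nuclease Fen1 and the ligase Lig1 lay between -0.79 and -0.07 in the hem class. So did the thymidylate genes Tyms and Tk1, the maintenance methylation factor Uhrf1 and Chaf1a, with Slbp just below at -0.82. Ccne2, the second E cyclin, stayed at 12.9, 12.9 and 14.3 CPM and was measured in no neural class.

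**Figure D4:**
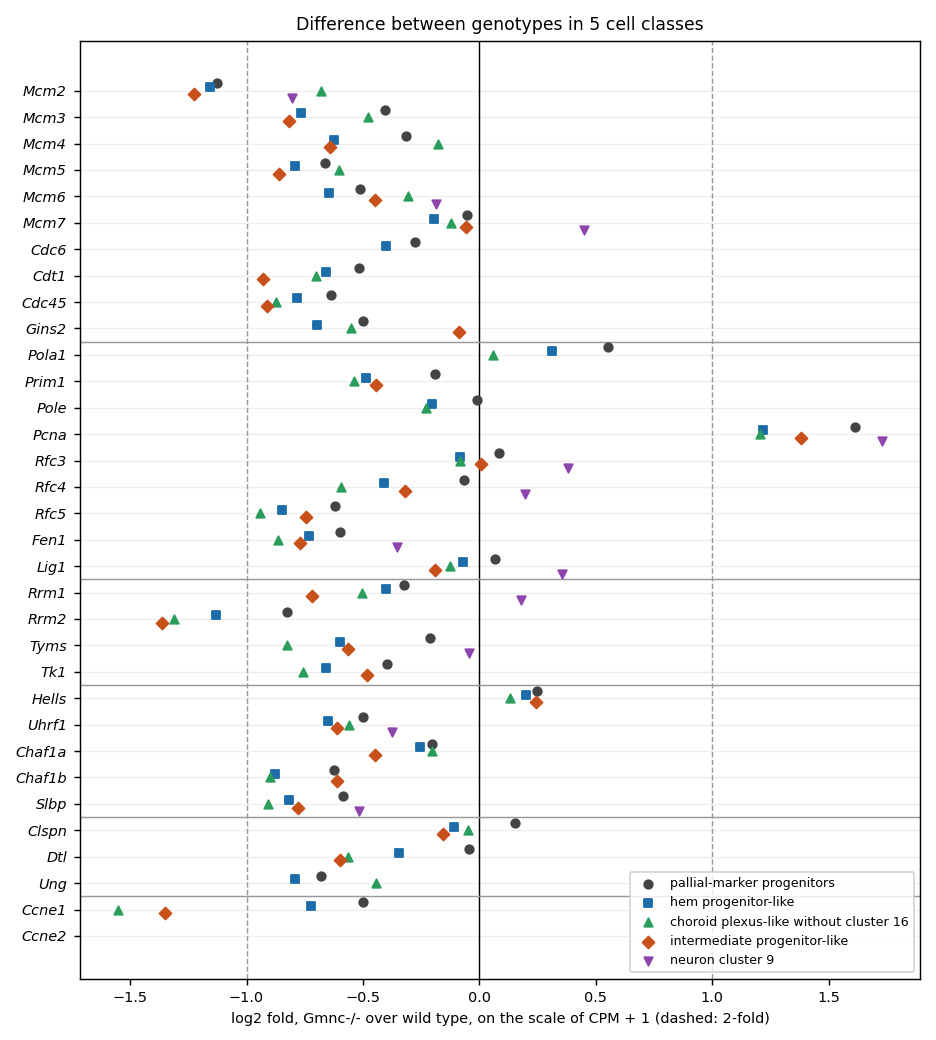
Log2 fold of the knockout over the wild type (x, on the scale of CPM + 1) for each measured gene in 5 classes; dashed lines mark 2-fold. Most points lie between -1 and 0, those of Pcna lie beyond 1 in each class shown, and points of neuron cluster 9 lie on both sides of 0.

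The comparison lists moved with the members in some classes and less in others. Of the other replication list 1 of 43 was at least 2-fold lower in the hem class, Rpa3, at 47.9, 57.3 and 17.5 CPM, with Rpa1 at -0.93, Orc4 at 0.19 and Atad2 at 0.29; its median was -0.35. The G2 and M list had medians of -0.31 in the hem class and -0.10 in pallial-marker progenitors with 0 of 24 called in each. It had -0.77 in choroid plexus-like cells without cluster 16, with 9 of 24 lower, and -1.01 in intermediate progenitors, with 14 of 24 lower. In intermediate progenitors Cdc20 stood at -1.82, Cdk1 at -1.71, Top2a at -0.63 and Nusap1 at -0.53. Fewer cycling cells and less RNA per cycling cell cannot be told apart in these sums. Stage, dissection, sequencing and the counting software (Cell Ranger 3.1.0 in the wild-type headers, 6.0.0 in that of the knockout) differ with genotype and cannot be told apart from it either. Erythroid markers summed to 270, 225 and 2026 CPM in the hem class; with haemoglobin genes left out of the class totals the hem median was still -0.63.

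In the neurons the result depended on which clusters entered. Over clusters 9 and 11 together, 5 of 17 measured members fell by 2-fold or more in the knockout (8.03% of all genes did), namely Dtl, Chaf1b, Rrm1, Chaf1a and Slbp, and the median was -0.63; Pcna was higher (4.71%). Cluster 11 had 7 knockout cells, so this sum compares different mixtures of cells. Within cluster 9 alone 0 of 12 were lower (2.82%), 1 was higher, Pcna (4.55%), and the median was 0.07. Rrm1 had 27.4, 28.9 and 32.0 CPM in cluster 9, a ratio of 1.14 (0.928 to 1.40), and Chaf1a 8.51, 4.23 and 9.91 CPM. In the knockout neurons 31 of 32 members were at least 2-fold below the knockout hem class and 0 above it (15.6% and 10.4% of all genes). In its intermediate progenitors 17 of 32 were below and 0 above (10.3% and 5.07%).

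A member was marked as alike where its genotype fold had 1 sign and a size of at least 0.5 in every class that measured it, with at least 4 classes and a span of at most 1 on the log2 scale. The 8 classes included erythroid-like, mesenchyme-like and microglia-like cells. They also included neuron clusters 9 and 11 pooled and choroid plexus-like cells with cluster 16, whose mixtures of cells differ between genotypes. The lowest fold of Chaf1b, -1.47, was that of the pooled neurons. The mark denotes a possible counting difference between the files. Pcna was the 1 member marked as higher, with log2 folds from 1.22 to 1.90 over 8 classes. It had 65.6, 73.8 and 164 CPM in the hem class, 21.9, 18.7 and 59.3 in erythroid-like cells, 38.4, 28.0 and 80.1 in mesenchyme-like cells and 53.9, 63.3 and 149 in microglia-like cells. Marked as lower were 4 members, Rrm2 (-1.36 to -0.53 over 7 classes), Chaf1b (-1.47 to -0.61 over 6), Cdc45 (-1.01 to -0.63 over 5) and Cdt1 (-0.93 to -0.52 over 4). Rrm2 had 92.9, 86.8 and 61.9 CPM in erythroid-like cells and 107, 122 and 67.7 in mesenchyme-like cells. With a size of 0.3 and a span of 1.5, 6 members were lower, with Mcm2 and Fen1 added. The share of all genes that the same rule would mark was not counted, so these counts have no background to be set against. The median of all measured members was not negative in each class: it was 0.33 in erythroid-like cells (0.39 for all genes), 0.05 in mesenchyme-like and -0.25 in microglia-like cells (-0.09 for all genes). Called lower and higher were 0 and 3 of 20 in erythroid-like cells (6.49% and 28.9% of all genes), 1 and 1 of 29 in mesenchyme-like cells (3.87% and 4.68%) and 1 and 1 of 19 in microglia-like cells (4.88% and 5.9%). The lower level of Rrm2 and the higher level of Pcna in the knockout were thus seen in each class that measured them, and whether counting differences produced them was not tested. Rrm2 did not pass the filter in the neurons. It had 18.3, 17.5 and 5.99 CPM in knockout sub-clusters 0, 2 and 8. In the wild-type libraries it had 19.6 and 15.8 CPM in sub-cluster 3 and 13.7 and 23.7 in sub-cluster 7.

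Per cell, at a fixed depth of 4000 UMIs, a hem progenitor-like cell carried a mean of 14.2, 14.4 and 10.4 UMIs of the 33 genes in wild-type libraries 1 and 2 and the knockout. Cells with 10 or more were 58.4%, 58.7% and 40.8%, and without thinning 89.0%, 89.5% and 66.6%. In pallial-marker progenitors the means were 17.2, 17.1 and 14.2. In choroid plexus-like cells without cluster 16 they were 10.8, 10.0 and 7.43, and in intermediate progenitors 6.90, 7.15 and 4.74. The knockout was below both wild-type libraries in these 4 classes. In neuron cluster 9 it was not, with 2.14, 2.18 and 2.45, and wild-type cluster 11 had 3.79 and 3.83. Cells too shallow to thin were 0.775%, 1.82% and 5.30% in the hem class and at most 7.49% in the other classes named here.

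**Figure D5:**
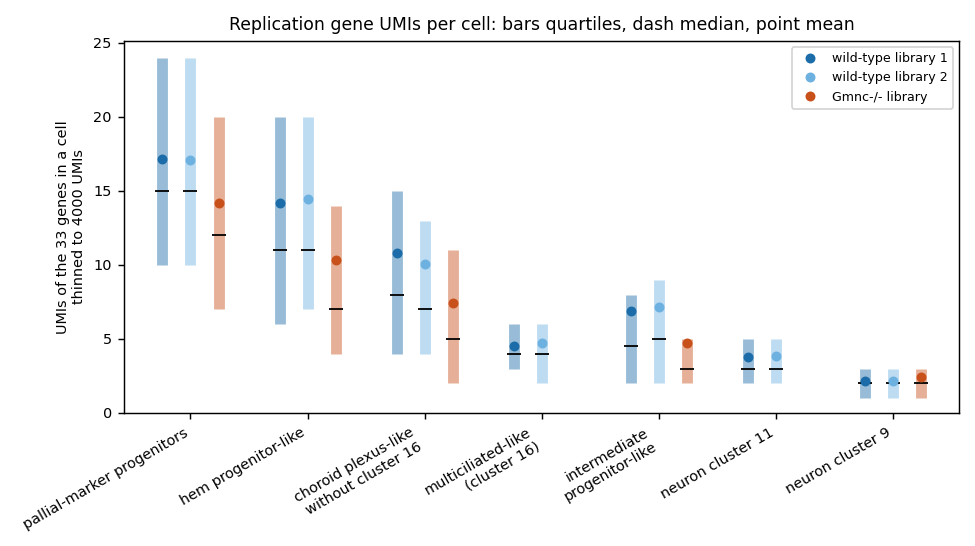
UMIs of the 33 genes in a cell thinned to 4000 UMIs (y), by class and library; bars span the quartiles, dashes are medians and points means. Knockout bars sit lower than both wild-type bars in pallial-marker, hem, choroid plexus-like and intermediate progenitor-like cells, but not in neuron cluster 9.

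The members differed in how their level went with that of G2 and M genes. Progenitors thinned to 4000 UMIs were put in 3 ranges by their UMIs of the G2 and M list: 0 or 1, 2 to 9, and 10 or more; these are ranges, not phases. In pallial-marker progenitors 29, 27 and 28 of the 33 genes were highest in the middle range in the 3 libraries. Ung had 182, 184 and 36.4 CPM over the ranges in wild-type library 1, 163, 177 and 33.3 in library 2 and 104, 107 and 25.5 in the knockout. Mcm6 had 263, 321 and 147 CPM in library 1, 304, 307 and 141 in library 2 and 195, 202 and 102 in the knockout. Rrm1 did the opposite, with 102, 175 and 209 CPM in library 1, 113, 175 and 203 in library 2 and 67.0, 139 and 165 in the knockout. The clamp loader genes Rfc4 and Rfc5 were likewise highest at 10 or more in all 3 libraries. The members kept in neuron cluster 11 were of both kinds: unlike Rrm1, Cdt1 had 76.2, 86.4 and 38.9 CPM over the ranges of library 1 and Ccne1 72.6, 101 and 34.9. In the hem class 23, 22 and 21 genes were highest in the middle range. In intermediate progenitors 22, 27 and 32 genes were instead highest at 10 or more. At 6000 UMIs the middle range was highest for 25, 27 and 24 genes in pallial-marker progenitors and for 19, 19 and 21 in the hem class. The highest range was taken without intervals, near ties included. The share of all genes highest in each range was not counted, so these counts do not set the members apart from other genes.

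The stage mixture of the wild-type suspension was followed by its reporters. Wild-type cells with tdTomato UMIs and no YFP UMIs were taken as E12.5 cells and the reverse as E11.5 cells, although a reporter UMI can come from free RNA. The tdTomato reporter depends on Wnt3aCre, so E12.5 cells that never had this driver active are not covered. In pallial-marker progenitors 1101 of 3285 and 923 of 2777 cells of libraries 1 and 2 carried neither reporter. How well the reporter cells stand for all E12.5 cells of a class was not tested. E12.5 over E11.5 cells had member medians of -0.08 in the hem class (343 and 285 cells with the E12.5 reporter in libraries 1 and 2) and 0.08 in pallial-marker progenitors (221 and 208). Set against the E12.5 reporter cells alone, the knockout medians were -0.51 in the hem class, -0.45 in pallial-marker progenitors, -0.59 in choroid plexus-like cells without cluster 16 and -0.68 in intermediate progenitors.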

How the data were processed

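The deposited values are raw UMI counts per gene and cell barcode, made by the authors with Cell Ranger; the submitters' processing notes give version 3.1.0, and per the file headers the wild-type matrices come from 3.1.0 and the knockout matrix from 6.0.0. The feature tables hold 28001, 28001 and 32285 genes, and the 27040 shared ones carry 99.8%, 99.8% and 99.2% of the UMIs. Barcodes with at least 1000 genes, at least 2000 UMIs and at most 10% mitochondrial UMIs were kept. Simulated doublets served to remove 941, 679 and 2491 barcodes (0.8% per 1000 cells expected). Cells were clustered with leidenalg 0.10.2 (2000 variable genes scaled within genotype, 40 principal components, 20 neighbours, resolution 1) and classes named from marker lists; 574, 544 and 1936 cells of other clusters were left out. Counts were summed per class and library (numpy 2.4.6, scipy 1.17.1, pandas 2.3.3), and wild-type CPM averaged over its 2 libraries. edgeR 4.0.16 served only for TMM factors in an alternative. The summaries were tested on simulated data. The 33 members, the lists and the classes were chosen with earlier results of these data known. Named genes are the members, plus the 2 lowest and 2 highest genes of each comparison list, with further genes of those lists (Cdkn1a, Ccnd1, Ccnd2, Gadd45g) chosen after their values were seen. UMIs, not reads, were counted.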

Additional observations from a re-analysis of the deposited data

Results flagged for a closer look

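Mcm3, a helicase subunit, went in opposite directions by class in the knockout. Its log2 fold over the wild type was 0.67 (1.62-fold) in erythroid-like cells, where it had 17.5, 17.1 and 28.0 CPM in wild-type libraries 1 and 2 and the knockout, and both wild-type libraries lay below the knockout. It was -0.77 (0.585-fold) in hem progenitor-like cells, -0.82 (0.560-fold) in intermediate progenitor-like cells and -0.93 (0.505-fold) in the neuron clusters, where both wild-type libraries lay above the knockout. These differences between classes were not tested, since each genotype is 1 sample. The median of all genes in erythroid-like cells was itself 0.39, and the neuron value compares different mixtures of clusters 9 and 11. Neural progenitor markers in the erythroid-like class summed to 37.2, 55.1 and 409 CPM in the 3 libraries, and their part in the Mcm3 difference was not tested.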

How the results depend on the processing

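No paired analysis was possible because the knockout has 1 library and both wild-type libraries come from 1 suspension. Of 278 recomputed class and genotype summaries 241 stayed within their spread, 36 moved and 1 changed sign. Of 230 recomputed values of single genes and of all genes 191 stayed, 31 moved and 8 changed sign; the sign changes are given here. Restricted to clusters in which both genotypes had 20 or more cells, the neuron median became 0.068 with 0 genes lower, Chaf1a 0.57 and Rrm1 0.18, the choroid plexus-like median -0.55 and the pallial-marker median -0.29. At resolution 2 the neuron median was -0.18 with 1 gene lower, and 2 genes kept 0.5 or more in cluster 11. TMM factors gave medians of -0.38 (neurons), -0.40 (pallial-marker) and -0.96 (intermediate progenitors over hem) and 1 choroid gene lower; median-ratio factors gave -0.36 for neurons and 1 choroid gene. Doublets kept gave -0.32 (pallial-marker), -0.88 with 12 genes lower (intermediate progenitors over hem), -1.11 (cluster 16) and knockout to wild-type ratios of mean UMIs per cell of 0.789 (choroid), 0.740 (hem), 0.637 (intermediate progenitors) and 0.838 (pallial-marker). Thinning to 2000 UMIs gave 0.713 (hem) and 0.820 (pallial-marker). At 6000 UMIs 10 genes were highest at 2 to 9 in choroid plexus-like cells of wild-type library 1 and 0 in knockout intermediate progenitors. A pseudocount of 5 CPM gave -2.17 for cluster 11 and -2.40 for cluster 9 over hem. Without the filter the members' medians were -0.16 (neurons) and -0.32 (pallial-marker), and those of all genes 0.018 (choroid), 0.0495 (hem), 0.039 (intermediate progenitors) and 0.017 (pallial-marker). Against E12.5 reporter cells medians were -0.51 (hem) and -0.45 (pallial-marker). There 4 of 32 choroid genes (2.96% of all genes) and 5 of 23 intermediate progenitor genes (2.82%) were lower. The main comparison measured 30 and 28 genes, so these counts rest on different sets. The all-gene median of intermediate progenitors was 0.050. In neurons the all-gene median was -0.16, and 0.013 with median-ratio factors. Leaving out either wild-type library gave 0.792 to 0.851 for the choroid ratio, -1.55 to -1.16 for cluster 16 and 1 to 2 choroid genes lower. The cause of these changes was not tested.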
